A study of Mus musculus with 6 samples.

Results

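Annexins are proteins that attach to membranes when calcium rises, and several of them work in pairs with small calcium sensors of the S100 family. The 10 genes described here are 4 annexin genes (Anxa1, Anxa2, Anxa3 and Anxa5) and 6 S100 genes (S100a4, S100a6, S100a8, S100a9, S100a10 and S100a11), found by symbol among the 17460 genes of the deposited liver table. They were proposed with the difference between Blnc1 LKO and control livers already known, so their differences between the groups are given as a description. Where the fit over all genes called a member, the call is printed but is not an independent test. All 10 passed the filter on low values, a normalised read count of at least 1 in at least 3 livers, as did 17297 genes of the table.

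Liver mRNA selected by polyA was sequenced from 6 C57BL/6 mice aged 9 months, 3 control and 3 Blnc1 LKO (LKO in short), all fed NASH diet (fructose, trans fats and cholesterol) for 24 weeks. Blnc1, named for its enrichment in brown fat, is a long noncoding RNA that is also expressed in the liver. Blnc1 LKO mice were Cas9 transgenic mice injected through the tail vein with an adenovirus carrying 2 guide RNAs against Blnc1. Control mice of the study's high-fat diet experiment were Cas9 transgenic mice given a GFP adenovirus, and the control virus of the NASH diet mice is not named in the sources used here. By the study's own account the adenovirus reaches hepatocytes and is taken up poorly by the other cells of the liver, and the Blnc1 level itself was not analysed here. The livers had from 65384969 to 89350181 reads on the listed genes, and the hepatocyte markers Alb, Apoa1, Ttr, Apob, Serpina1a and Cps1 were all abundant, with no value under 49991. A normalised read count is a number of reads scaled by the size factor of its library, and 1 read was worth between 0.836 and 1.19 normalised counts. The labels give 3 mice per group but no litter or day, so the spread between replicates is that between these livers. In whole liver, fewer cells of a type and less RNA per cell cannot be told apart.

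Annexins bind phospholipids through a conserved core and differ in their tails, which carry the sites for S100 partners. Annexin A2 joins S100A10, also called p11, in a complex of paired subunits that sits under the plasma membrane and gathers plasminogen and its activator on the cell surface. Annexin A1 pairs with S100A11 and, once released, acts on formyl peptide receptors, while S100A8 and S100A9 form calprotectin, which fills the cytosol of neutrophils. In liver, most of these genes are known from macrophages, bile duct cells, stellate cells and endothelial cells more than from hepatocytes.

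All 6 S100 genes lie on chromosome 3 of the mouse genome (GRCm38, coordinates of GENCODE release M21). S100a4 (chromosome 3, 90603771 to 90606045, + strand), S100a6 (90612882 to 90624181, + strand), S100a8 (90668978 to 90670035, + strand) and S100a9 (90692632 to 90695721, − strand) form a cluster, and S100a11 (93520488 to 93526287, + strand) and S100a10 (93555080 to 93564643, + strand) lie next to each other farther along. Each S100 gene has 3 exons in its principal transcript, and each annexin member has 13. Anxa5 is also on chromosome 3 (36448923 to 36475894, − strand), Anxa2 on chromosome 9 (69453620 to 69491795, + strand), Anxa3 on chromosome 5 (96793339 to 96845966, + strand) and Anxa1 on chromosome 19 (20373428 to 20390944, − strand). Anxa1 lies within the noncoding gene 1500015L24Rik on the opposite strand, and Anxa2 overlaps the antisense gene Gm16144. The strand setting of the counting is not given in the sources used here, so reads of such pairs may not be told apart. On the same strand, S100a4 overlaps the protein-coding gene Gm42674 (90601904 to 90605885), Anxa5 Mir7009, Anxa2 Mir3109 and Anxa3 Gm42603. No strand setting separates these pairs, and of these same-strand genes only Mir7009 is in the deposited table.

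RefSeq promoter sequences, 250 bases before to 50 after the start of the gene (GRCm38.p6), were at hand for 8 of the 10 genes. They were searched on both strands for TGANTCA, the site of the AP-1 factors, for TATAAA, the TATA box, and for GAGGAAG, a core of PU.1 sites. An AP-1 match was present in 7.81% of 32851 promoters, and among the members Anxa2 held 1 and S100a11 held 2. A TATAAA match was present in 13.6% of promoters and in those of Anxa1, Anxa2, S100a4, S100a8 and S100a9. GAGGAAG was also present in 13.6% of promoters, and in those of S100a4 and S100a8. The AP-1 matches of Anxa2 (chr9:69453577-69453605) and S100a11 (chr3:93520349-93520377 and chr3:93520447-93520475) begin 95, 136 and 38 bases before the start, all on the + strand. The TATAAA match of S100a8 (chr3:90669029-90669058, + strand) begins 30 bases before its RefSeq start, and that of S100a9 (chr3:90695704-90695733, − strand) begins at the RefSeq start itself. These windows are shown because Anxa2 and the S100a8 and S100a9 pair have the log2 fold changes farthest from 0 among the members, and S100a11 is the other member with an AP-1 match. Capitals mark the match.
Anxa2, AP-1: tccaagttggaTGAGTCAcccagcagggt
S100a11, AP-1, farther from the start: cagagacctgtTGAGTCAcagggactaca
S100a11, AP-1, nearer to the start: cgggcacagccTGAGTCAggctgaggggc
S100a8, TATAAA: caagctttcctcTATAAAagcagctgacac
S100a9, TATAAA: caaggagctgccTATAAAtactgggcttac
The matches are a description of the letters and were not tied to any measurement of binding.

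To compare genes with each other, normalised read counts were divided by the length of the longest principal transcript. In control livers Anxa5 had the highest level, 24070 ± 594 per kb (SD, n = 3), and S100a10 followed at 21162 ± 1138 and Anxa2 at 11467 ± 562 per kb. S100a11 had 4134 ± 261 and S100a6 1580 ± 118 per kb. Anxa3 (1095 ± 143), S100a4 (1006 ± 85.7) and Anxa1 (924 ± 46.7) came next, and in this order the control values of Anxa3 overlapped those of S100a4 and those of S100a4 overlapped those of Anxa1. S100a9 and S100a8 were lowest, at 618 ± 176 and 476 ± 172 per kb, and their control values overlapped too. The annexin A2 gene was thus measured at a per-kb level of 0.535, 0.545 and 0.545 of its partner S100a10 in the control livers.

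**Figure D1:**
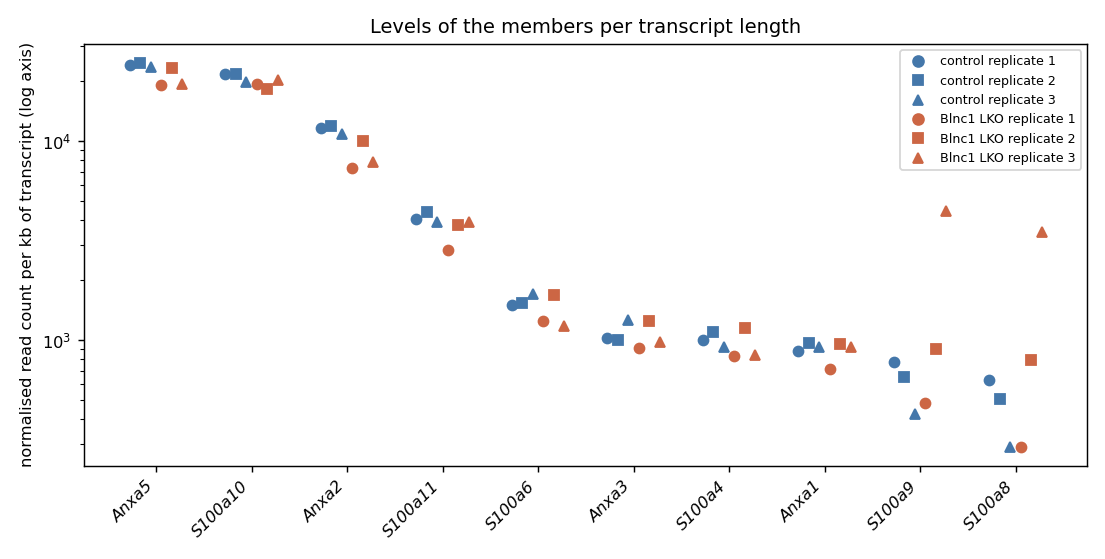
Normalised read count per kb of transcript, on a log axis, of each member in each of the 6 livers, with genes ordered by their control mean. Anxa5, S100a10 and Anxa2 lead, and S100a9 and S100a8 are lowest in 5 livers but not in Blnc1 LKO replicate 3.

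Compared with control, 8 of the 10 genes had a lower mean on the log2 scale in LKO livers, and S100a8 and S100a9 had a higher one. The lowest log2 fold change was that of Anxa2. For S100a8 and S100a9, Blnc1 LKO replicates 2 and 3 were above every control liver, and replicate 3 was by far the highest. The median log2 fold change of the 10 was −0.12, and that of all 17297 genes was −0.001. Every Blnc1 LKO liver was below every control liver for Anxa2 and Anxa5, 2 of the 10, and 5.28% of all genes showed the same arrangement. No member had every Blnc1 LKO liver above every control liver, which 5.35% of all genes did. At an adjusted p under 0.05 limma called none of the 10 (0.00578% of all genes), edgeR none (0.0116%) and DESeq2 on the recovered reads 1, Anxa2 (0.486%). Limma called Anxa2 only without Blnc1 LKO replicate 2, among the fits that leave out a liver. At an unadjusted p under 0.05 in limma 2 of the 10 were lower, Anxa2 and Anxa5 (2.74% of all genes), and none was higher (2.94%). Nothing is read from these counts and calls, that of Anxa2 with a liver left out included, since the contrast was known when the genes were chosen.

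**Figure D2:**
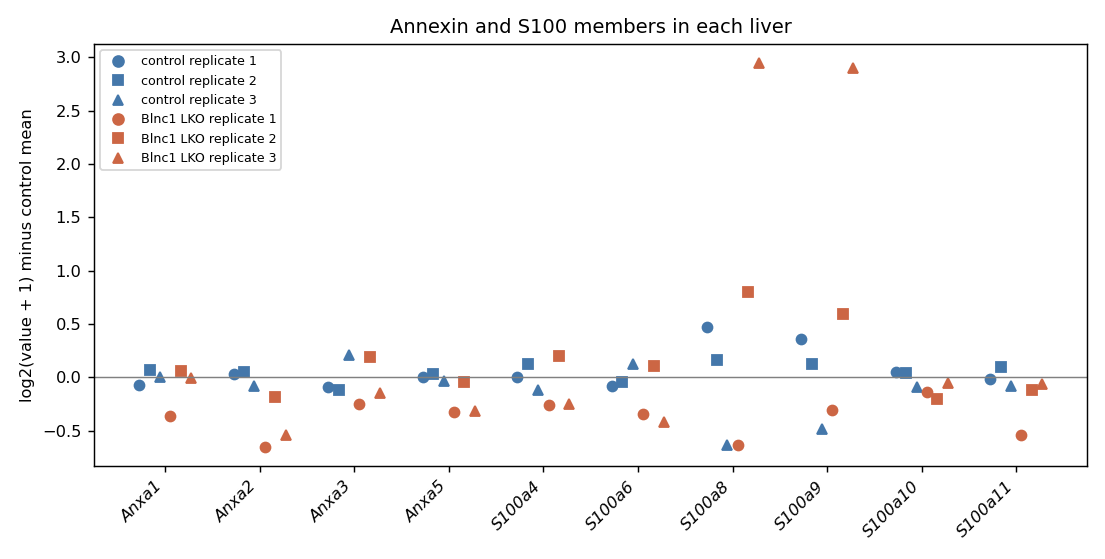
Log2(normalised read count + 1) of the 10 members in each liver, minus the mean of the 3 control livers, with colour for group and shape for replicate. The points of the other 8 genes lie within 0.7 of 0, Anxa2 is below 0 in all Blnc1 LKO livers, and S100a8 and S100a9 stand at 2.95 and 2.90 in Blnc1 LKO replicate 3.

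Anxa2 encodes annexin A2, which organises membrane and cortical actin and holds S100A10 at the membrane. It had 16946, 17169 and 15663 normalised counts in control livers and 10565, 14565 and 11387 in LKO livers. The groups did not overlap, and Blnc1 LKO replicate 2 lay nearest to control. The mean was 16593 ± 813 in control and 12173 ± 2112 in LKO livers (mean ± SD, n = 3 per group), 0.734 of control, and the log2 fold change was −0.46 (standard error, SE, 0.11). Leaving out single livers, its log2 fold change ranged from −0.60, without Blnc1 LKO replicate 2, to −0.36, without Blnc1 LKO replicate 1.

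S100a10 encodes the subunit that annexin A2 binds and shields from degradation. Its counts were 14987, 14904 and 13598 in control and 13211, 12599 and 13928 in LKO livers. Blnc1 LKO replicate 3 lay above control replicate 3, so the groups overlapped. The log2 fold change was −0.13 (standard error 0.063), and S100a10 was the only member whose coefficient of variation was not larger in Blnc1 LKO (5.02%) than in control livers (5.38%). The per-kb ratio of Anxa2 to S100a10 was 0.379, 0.547 and 0.387 in LKO livers. Replicates 1 and 3 were thus below the control ratios given above, and replicate 2 was level with them.

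Anxa5 encodes annexin A5, which binds phosphatidylserine on the surface of dying cells and platelets. It had 41617, 42717 and 40662 normalised counts in control and 33264, 40308 and 33373 in LKO livers. Again no Blnc1 LKO liver reached the lowest control liver, but replicate 2 missed it narrowly. The mean in LKO livers was 0.856 of control and the log2 fold change −0.23 (standard error 0.085).

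Anxa1 encodes annexin A1, a mediator that dampens neutrophil recruitment and favours the resolution of inflammation. Its values were 1469, 1626 and 1547 in control and 1201, 1606 and 1538 in LKO livers, so that replicate 1 alone was low. The log2 fold change was −0.11 (standard error 0.11), and it was 0.02 without Blnc1 LKO replicate 1, −0.07 without control replicate 2 and −0.19 without Blnc1 LKO replicate 2. Anxa3, an annexin known from neutrophils, had 1635, 1597 and 2009 in control and 1463, 1985 and 1565 in LKO livers. These ranges overlapped widely and the log2 fold change of Anxa3 was −0.07 (standard error 0.13), which turned to 0.04 without control replicate 3 and to 0.02 without Blnc1 LKO replicate 1. Each of the 6 livers moved the value of Anxa3 by over 1.5 times when left out, down to −0.20 without Blnc1 LKO replicate 2.

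S100a11, the partner of annexin A1, had 2081, 2259 and 1997 normalised counts in control and 1448, 1945 and 2017 in LKO livers. As for Anxa1, replicate 1 of the Blnc1 LKO livers was the low one, while replicate 3 lay within the control range. The log2 fold change was −0.24 (standard error 0.12). It came to −0.09 without Blnc1 LKO replicate 1. The per-kb ratio of Anxa1 to S100a11 kept between 0.216 and 0.236 in control livers and was 0.253, 0.252 and 0.233 in LKO livers.

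S100a6, or calcyclin, a calcium sensor of dividing cells and fibroblasts, had 1093, 1119 and 1254 in control and 910, 1238 and 861 in LKO livers. Replicates 1 and 3 were below every control liver and replicate 2 was within their range. Its log2 fold change was −0.22 (standard error 0.13), and it ranged from −0.38 without Blnc1 LKO replicate 2 to −0.12 without Blnc1 LKO replicate 3. S100a4, a myosin-binding S100 protein often used as a fibroblast marker, had 500, 544 and 459 in control and 417, 575 and 420 in LKO livers, with replicate 2 above all control livers. Its log2 fold change of −0.10 had a standard error of 0.14. That value ranged from −0.26 without Blnc1 LKO replicate 2 to −0.02 without Blnc1 LKO replicate 1, with −0.03 without Blnc1 LKO replicate 3, −0.04 without control replicate 2 and −0.17 without control replicate 3.

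Besides S100a8 and S100a9, 6 of the other 8 genes had their highest Blnc1 LKO value in replicate 2 and 6 had their lowest in replicate 1. In 4 of the 8, replicate 2 was at or above the lowest control liver. The coefficient of variation was larger in Blnc1 LKO than in control livers for 9 of the 10 members, as it was for 71.4% of the 12488 genes with a mean of at least 100. Its median over those genes was 4.69% in control and 7.62% in LKO livers. For Anxa2 it was 4.9% and 17.4%, and for Anxa5 2.47% and 11.3%.

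S100a8 and S100a9, the calprotectin genes, were the members with a higher mean in LKO livers. S100a8 had 307, 246 and 142 normalised counts in control and 142, 385 and 1705 in LKO livers, and S100a9 had 401, 340 and 222 in control and 251, 470 and 2326 in LKO livers. Replicate 3 of the Blnc1 LKO livers was 4.43 times the next highest liver for S100a8 and 4.95 times for S100a9, replicate 2 was also above every control liver for both genes, and replicate 1 was near the lowest control liver or within the control range. The log2 fold changes were 1.04 (standard error 0.75) for S100a8 and 1.06 (standard error 0.68) for S100a9. Without Blnc1 LKO replicate 3 they came to 0.08 and 0.14, and without Blnc1 LKO replicate 1 to 1.88 and 1.74. Their centred log2 values differed by a root mean square of 0.176. Of the other pairs compared, the difference was 0.0882 for Anxa1 and S100a11, 0.129 for Anxa2 and Anxa5 and 0.168 for Anxa2 and S100a6. It was 0.238 for Anxa2 and S100a10. These differences are not scaled to how much the genes vary, so they do not rank the pairs. The profile of S100a9 itself has a root mean square of 1.12, against 0.272 for Anxa2 and 0.0896 for S100a10. The per-kb ratio of S100a8 to S100a9 lay between 0.602 and 0.876.

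Neutrophil markers were high in the same liver as calprotectin. Of 10 markers listed, 9 were measured, and all 9 were highest in Blnc1 LKO replicate 3. Their summed level was 1291, 1096 and 997 in control and 922, 1241 and 3635 in LKO livers, and no marker was at 0 in any liver. Csf3r gave most of this sum outside replicate 3, with 594 to 754 there. Ngp was 6.43 times, Ltf (lactoferrin) 5.42 times, Camp (cathelicidin) 4.99 times and Elane (neutrophil elastase) 4.41 times the next highest liver. Retnlg was 2.93 times, and the granule enzyme genes Mmp9 and Mmp8 were 2.40 and 1.75 times the next highest liver. Cxcr2 and Csf3r, receptors of mature neutrophils, were 1.26 and 1.12 times the next highest liver. The part of the neutrophil markers in the values of S100a8 and S100a9 was not tested.

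**Figure D3:**
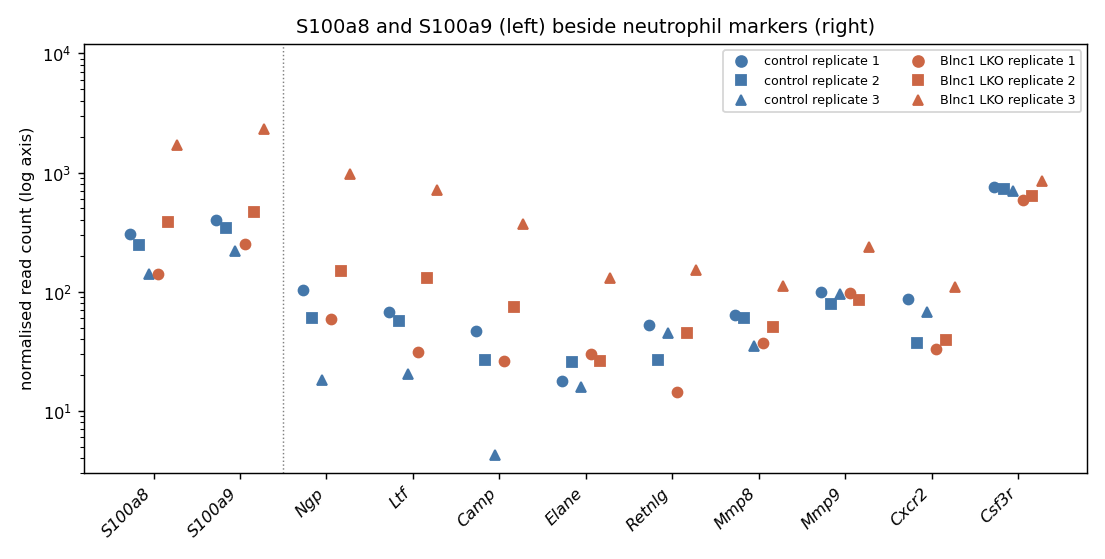
Normalised read count, on a log axis, of S100a8 and S100a9 and of 9 neutrophil markers in each of the 6 livers, with colour for group and shape for replicate. Blnc1 LKO replicate 3 is the highest liver for all 11 genes, by 6.43 times over the next liver for Ngp and by 1.12 times for Csf3r.

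Summed marker levels of other cell types were compared for the lower genes. The 7 stellate cell markers summed to 39710, 32950 and 38956 in control and to 25546, 32551 and 26454 in LKO livers, without overlap. Replicate 2 was the highest Blnc1 LKO liver, as it was for Anxa2 and for the fatty liver macrophage, bile duct and lymphocyte markers below. Most of the stellate sum came from the collagen genes Col1a1 (8006 to 15541 over the 6 livers) and Col1a2 (9164 to 15299). DESeq2 called 3 of these 7 lower, Col1a1, Col1a2 and Acta2 (0.486% of all genes in either direction), and limma and edgeR called none. In limma 4 of the 7 were lower at an unadjusted p under 0.05 (2.74% of all genes). Lrat, Pdgfrb, Des and Tagln overlapped between the groups, and Lrat had a positive log2 fold change (0.16). The 7 markers of macrophages of fatty liver summed to between 81445 and 93386 in control and to 70270, 92161 and 64464 in LKO livers, so replicates 1 and 3 lay below control. Spp1, which bile duct cells also express, gave most of that sum (44457 to 67562). All 7 had a negative log2 fold change, from −0.62 to −0.10. The lowest was that of Lgals3, with every LKO liver below every control liver (limma adjusted p = 0.700). In replicate 3 Cd68 (3999) was within the control range and Itgax (2532) above it. For the 7 bile duct markers the sums were 3012 to 4779 in control and 3231, 4530 and 3284 in LKO livers. Those of the 6 endothelial markers were 22227 to 23485 in control and 22089, 21457 and 22140 in LKO livers, also without overlap, but with replicate 2 the lowest. The 7 Kupffer cell markers had 48901 to 56433 in control and 55450 to 64558 in LKO livers, all 7 with a positive log2 fold change. In limma 5 of these 7 were higher at an unadjusted p under 0.05 (2.94% of all genes). Marco was at 9.75 of control, without overlap, though replicate 2 (95.8) was near control replicate 2 (87.4). Timd4 was at 2.36 and Vsig4 at 2.02 of control, both with overlap, and Cd5l at 1.02. The 7 monocyte markers summed to 100253 to 111645 and 101928 to 110770, nearly all of it Fn1 (94281 to 105777), which hepatocytes also make. Of these monocyte markers 4 had a negative and 3 a positive log2 fold change, with a median of −0.003. The lowest was that of Ccr2, a receptor of monocytes (−0.33, SE 0.087, limma adjusted p = 0.619). Ccr2 was below every control liver in all LKO livers, at 0.798 of control. Ly6c2, Chil3 and Itgam had higher means in LKO livers, at 1.09, 1.38 and 1.06 of control. For the 7 lymphocyte markers the sums were 1400 to 1949 in control and 1432, 1942 and 1250 in LKO livers. The 6 hepatocyte markers summed to 5276402 to 5884364 and 5129175 to 6234400. At an unadjusted p under 0.05 in limma, 3 of the 6 endothelial, 2 of the 7 fatty liver macrophage and 1 of the 7 monocyte markers were lower (2.74% of all genes). None of the bile duct, lymphocyte and hepatocyte markers was lower or higher at that threshold. Outside the stellate list limma, edgeR and DESeq2 called none of these markers. No marker of these lists was at 0 in all livers, and their part in the values of Anxa2, Anxa5, S100a6 and S100a11 was not tested.

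The genes nearest to Anxa2 were sought by the root mean square difference of centred log2 values over the 6 livers among 12478 genes with a mean of at least 100. They were Ccdc80 (0.0516), Cpz (0.0662) and Col6a2 (0.0689), where the profile of Anxa2 itself has a root mean square of 0.272. Ccdc80 and Col6a2 encode matrix proteins and Cpz a carboxypeptidase bound to matrix. Ccdc80 had 5154, 4925 and 4986 normalised counts in control and 3375, 4443 and 3525 in LKO livers. For S100a10 the nearest genes were Mtmr9, Eml4 and Ggcx (0.0251 to 0.0305, profile 0.0896). For S100a9 they were Ppbp, a platelet chemokine gene, Chil3 and Ltf (0.416 to 0.594, profile 1.12). Ppbp had 104, 55.4 and 59.7 in control and 94.0, 137 and 408 in LKO livers. The mean profile of all 10 members, to which S100a8 and S100a9 contribute most, was nearest to Apobr, Atg16l2 and Fmnl1 (0.0333 to 0.0568, profile 0.24).

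Other annexin and S100 genes were not among the chosen members and were tested in the same fit over all genes. Their list too was made with earlier results of these data known. Of 18 listed, 16 were measured and tested. At an adjusted p under 0.05 limma (0.00578% of all genes), edgeR (0.0116%) and DESeq2 (0.486%) each called none. DESeq2 gave no adjusted p for Anxa10, S100a3 and S100a7a. In limma 1 of the 16 was lower at an unadjusted p under 0.05, S100a16 (2.74% of all genes), and none was higher (2.94%). Their median log2 fold change was −0.07, with 10 lower and 6 higher. Every Blnc1 LKO liver was below every control liver for 3 of the 16, Anxa6, Anxa7 and S100a16 (5.28% of all genes). Every Blnc1 LKO liver was above for 1, Anxa10 (5.35% of all genes), whose values were between 0.932 and 2.38.
Anxa7, an annexin of secretory membranes, had a mean of 15184 ± 696 in control and 14015 ± 53.5 in LKO livers (mean ± SD, n = 3 per group), a log2 fold change of −0.12 (SE 0.054, limma adjusted p = 0.891). Anxa6, the annexin with a doubled core, had a log2 fold change of −0.11 (SE 0.055, limma adjusted p = 0.899). S100a16, which lies in the chromosome 3 cluster, had 2367 ± 90.8 in control and 2114 ± 97.5 in LKO livers (mean ± SD, n = 3 per group), with a log2 fold change of −0.16 (SE 0.061, limma adjusted p = 0.840). S100a1 and S100a13, also of the cluster and well expressed, had log2 fold changes of −0.06 and −0.01. None of these genes had an adjusted p under 0.05 after adjustment over all genes tested.

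**Figure D4:**
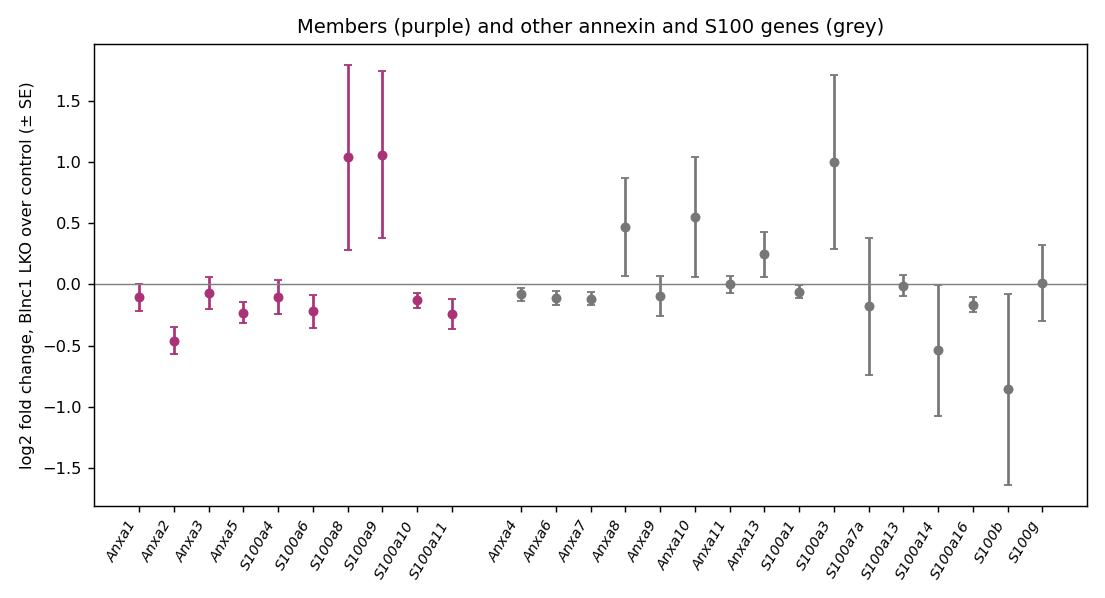
Log2 fold change, Blnc1 LKO over control, of the 10 members and of 16 other annexin and S100 genes, with bars for the standard error of limma. Most members and most well expressed relatives lie between −0.5 and 0.3, and the widest bars belong to S100a8, S100a9 and genes with few reads such as S100b.

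Partner genes were listed by function, but with earlier results of these data known, so their calls are not independent of those results. They were tested in the same fit, and 28 of 28 were measured. Limma and edgeR called none at an adjusted p under 0.05, and DESeq2 called 1, Fpr1 (0.486% of all genes). At an unadjusted p under 0.05 in limma 2 were higher (2.94% of all genes) and 3 lower (2.74%). The median log2 fold change was −0.07. Of the 7 receptor genes, 2 were higher at an unadjusted p under 0.05, the formyl peptide receptor genes Fpr1 and Fpr2, whose products bind annexin A1 and bacterial peptides, and 1 was lower, Bsg, the gene of basigin, named after its values were seen. Fpr1 had 277, 276 and 208 normalised counts in control and 490, 365 and 401 in LKO livers. All 3 Blnc1 LKO livers were above all control livers, and the log2 fold change was 0.72 (SE 0.16, adjusted p = 0.548 in limma, 0.543 in edgeR and 0.0072 in DESeq2). Fpr2 had 139, 132 and 110 in control and 208, 169 and 271 in LKO livers, also without overlap, and its log2 fold change was 0.74 (SE 0.19, adjusted p = 0.604 in limma, 0.586 in edgeR and 0.0574 in DESeq2). In Blnc1 LKO replicate 1, where S100a8 and S100a9 were not above the control livers, both receptor genes were. This rests on 1 liver, and the part of cell type content in the values of Fpr1 and Fpr2 was not tested.

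In the plasmin system, which annexin A2 and S100A10 serve, Plau, the gene of urokinase, had 969 ± 41.7 in control and 749 ± 72.6 in LKO livers (mean ± SD, n = 3 per group). The groups did not overlap and for Plau the log2 fold change came to −0.38 (SE 0.087, adjusted p = 0.548 in limma and 0.0663 in DESeq2). Ahnak, a giant scaffold protein bound by annexin A2 with S100A10, had a log2 fold change of −0.12 (SE 0.093, limma adjusted p = 0.971), which was −0.03 without Blnc1 LKO replicate 1, −0.08 without control replicate 2 and −0.21 without Blnc1 LKO replicate 2. Of the 7 genes of this list 1 had an unadjusted p under 0.05. Plg, the plasminogen gene of hepatocytes, had a log2 fold change of 0.11 (standard error 0.088).
Among the 4 S100 targets, Myh9, the nonmuscle myosin that S100A4 binds, had 18178 ± 464 in control and 15860 ± 1933 in LKO livers (mean ± SD, n = 3 per group, log2 fold change −0.20, SE 0.087, limma adjusted p = 0.870). Without Blnc1 LKO replicate 1 the value of Myh9 was −0.10. Of 11 membrane repair genes, 6 were lower and 5 higher, and none had an unadjusted p under 0.05. The smallest p in this list were those of Capns1, the small calpain subunit, and Chmp4b, a subunit of the ESCRT machinery, with log2 fold changes of −0.13 (SE 0.067, limma adjusted p = 0.923) and −0.07 (SE 0.048, limma adjusted p = 0.968). That of Capns1 was −0.07 without Blnc1 LKO replicate 1.

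**Figure D5:**
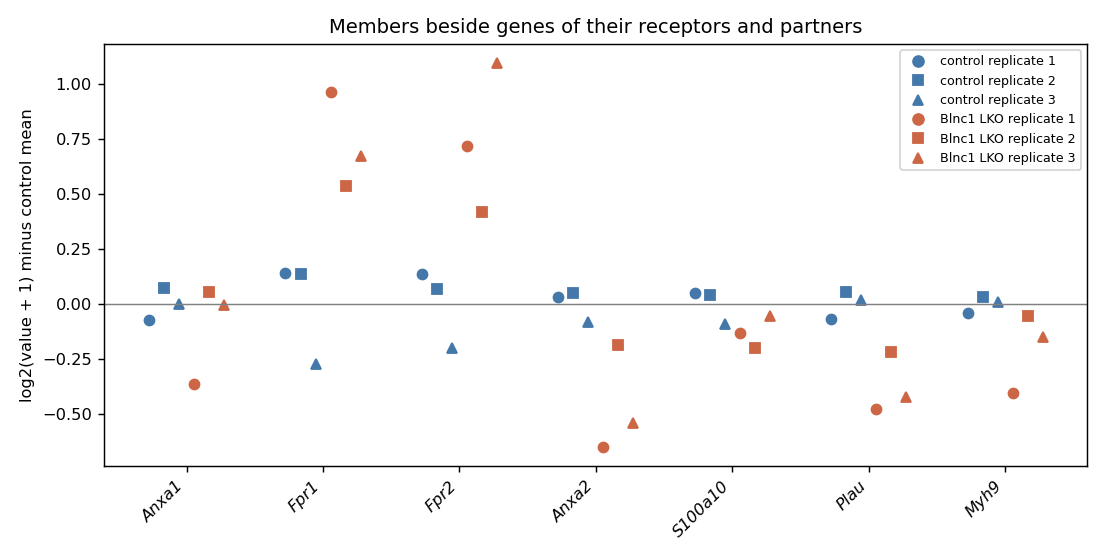
Log2(normalised read count + 1) minus the control mean for Anxa1 with the receptor genes Fpr1 and Fpr2, for Anxa2 with S100a10 and Plau, and for Myh9, in each of the 6 livers. Fpr1 and Fpr2 are above all control livers in every Blnc1 LKO liver, and Anxa2, Plau and Myh9 are below them.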

How the data were processed

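Per the paper's methods and the labels, the authors sequenced polyA-selected liver mRNA, used STAR for alignment to mm10, HTSeq for counting and DESeq2 for comparison. Versions, annotation and strand setting are not given in the sources used here. The deposited signal is the count of each gene scaled by the size factor of its library. 23 gene symbols had been turned into dates and were kept as written. Dividing by the smallest value above 0 of each column gave whole reads for 100% of values (within 0.01 read). Limma (version 3.58.1, R 4.3.3; lmFit, eBayes with trend) was fitted to log2(value + 1) over all genes that reached a value of 1 in 3 or more livers, control against Blnc1 LKO without covariates, with Benjamini-Hochberg adjustment over all genes and a threshold of 0.05. Fold changes on this scale understate the change of low genes. edgeR (4.0.16, quasi-likelihood) and DESeq2 (1.42.0) on the recovered reads, another pseudocount, other filters, the replicate number as a block and leaving out each liver were the alternatives. The scripts were tested on simulated data. Members and lists were chosen with earlier results of these data known. Genes named are the members, the 3 other family genes and the 2 genes of each partner list of smallest p, any called, and the 3 genes nearest in profile to Anxa2, S100a10, S100a9 and the members' mean. Other genes named, such as S100a1, S100a13, Plg and single markers, were chosen after their values were seen and so were the per-kb ratios. Lengths and positions come from GENCODE M21 (GRCm38, the build also called mm10).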

Additional observations from a re-analysis of the deposited data

How the results depend on the processing

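Over all genes limma called 1 gene, and 2 with no filter on low values. edgeR on the recovered reads called 2, DESeq2 called 84, and DESeq2 with the replicate block called 57. With 1 liver left out in turn the count ranged from 0 to 13, the highest without Blnc1 LKO replicate 2, and limma with the replicate block called 0. The labels do not say whether the replicate numbers pair the livers. Same-numbered livers had correlations of −0.0584, −0.0191 and −0.107 between their deviations from the group means. Livers with different numbers had −0.0473 to 0.105. With 3 livers per group these values cannot settle whether a pairing exists. Of the 28 partner genes, DESeq2 and DESeq2 with the replicate block each called 1, Fpr1, where limma called none. The other annexin and S100 genes had no call under any of the 14 alternatives. The log2 fold changes of Anxa1 and Anxa3 changed sign under 1 and 2 alternatives, all of them with a liver left out, and those of the other 8 members kept their direction under all 14. edgeR and DESeq2 gave 1.69 for S100a8 and 1.67 and 1.66 for S100a9, against 1.04 and 1.06 in limma, and DESeq2 with the replicate block gave 0.96 and 0.97. For S100a8 and S100a9 the log2 fold changes in limma were 0.08 and 0.14 without Blnc1 LKO replicate 3. They were 1.88 and 1.74 without Blnc1 LKO replicate 1. The fewest reads behind a member value were those of S100a8, 119 in Blnc1 LKO replicate 1 and 133 in control replicate 3.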
